A study of Rattus norvegicus with 12 samples.

Results

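Breakdown of branched-chain fat in the peroxisome was followed through 6 genes in rat liver, namely Hacl1, Phyh, Amacr, Scp2, Hsd17b4 and Crot. Their probe sets, the groups of short probes that an Affymetrix rat expression array aims at 1 transcript, were those whose single gene symbol in the platform annotation was 1 of these 6, which gave 10 of the 31042 probe sets other than controls. The set was chosen by the level of Hacl1, which was known to lie higher with 1% wakame than with control, and by the function of the other genes. For that reason the Hacl1 values below are a description with no test. Probe sets whose standard deviation (SD) over the 12 arrays was at most 0.01 log2 counted as unmeasured. By that limit 7 probe sets of 5 genes were measured and 3 were not, namely the only probe set of Hsd17b4, 1 of 2 of Scp2 and 1 of 3 of Crot. The limit separated these 10 probe sets by a wide gap. The lowest SD of a measured one was 0.067 for Scp2 (1370296_at), and the highest of an unmeasured one was 5.1e-09 for the other Scp2 probe set. Over the whole array the gap was less clean, since 27802 probe sets fell at or under the limit but only 27627 under 1e-06.

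The animals were male Sprague Dawley rats, 9 weeks of age at liver collection, for which the labels name no transgene and no drug. For 28 days they ate the purified AIN-93G control diet, AIN-93G with 0.1% wakame powder or AIN-93G with 1% wakame powder. Wakame is a brown seaweed eaten as food. There were 4 arrays per diet, of separate rats. Per the series' design text 6 rats were fed each diet with 3 in a cage, and which rats shared a cage is not given, so that an effect of cage and one of diet cannot be told apart.

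Phytanic acid, which animals make from the phytol side chain of chlorophyll, carries a methyl group that blocks ordinary beta-oxidation. Liver peroxisomes remove a single carbon from it by alpha-oxidation: Phyh, phytanoyl-CoA hydroxylase, adds a hydroxyl group, and Hacl1, a lyase that needs thiamine pyrophosphate, then splits off formyl-CoA and leaves the aldehyde of pristanic acid. Amacr, a racemase, turns the resulting methyl-branched acyl-CoA into the mirror form that peroxisomal beta-oxidation accepts, the multifunctional enzyme Hsd17b4 hydrates and dehydrogenates it, and the thiolase form of Scp2 cleaves it. Crot, carnitine octanoyltransferase, places shortened chains on carnitine so that they can leave for the mitochondrion. Amacr, Hsd17b4 and Scp2 also shorten the side chain of bile acid precursors.

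Promoter windows are shown for 3 of the 5 measured genes, Hacl1, Amacr and Crot, picked by the order of their diet means. No diet difference of Amacr or Crot passed the test described below. The windows run from 250 bases before to 50 bases after the RefSeq gene start on assembly GRCr8, 5′ to 3′ on the gene's own strand. Expression values were tied to genes by symbol only, so these windows place the genes and not the probes. The windows are chr16:6869361-6869660 on the minus strand for Hacl1, chr2:61673085-61673384 on the plus strand for Amacr and chr4:26052874-26053173 on the plus strand for Crot. Capitals mark the nuclear receptor half-site AGGTCA, the GC box GGGCGG and the CCAAT box, each searched on both strands.
Hacl1: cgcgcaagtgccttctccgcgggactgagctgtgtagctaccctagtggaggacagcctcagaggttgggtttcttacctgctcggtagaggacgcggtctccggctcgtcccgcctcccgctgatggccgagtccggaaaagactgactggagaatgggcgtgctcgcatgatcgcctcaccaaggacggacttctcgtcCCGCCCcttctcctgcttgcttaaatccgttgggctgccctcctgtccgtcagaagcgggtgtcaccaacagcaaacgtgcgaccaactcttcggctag
Amacr: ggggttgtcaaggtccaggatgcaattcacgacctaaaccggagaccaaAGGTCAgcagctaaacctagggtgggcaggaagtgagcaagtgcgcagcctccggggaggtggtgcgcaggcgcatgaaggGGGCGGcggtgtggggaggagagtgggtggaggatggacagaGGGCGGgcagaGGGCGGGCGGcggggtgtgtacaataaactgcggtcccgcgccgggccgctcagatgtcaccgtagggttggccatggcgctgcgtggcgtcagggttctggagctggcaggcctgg
Crot: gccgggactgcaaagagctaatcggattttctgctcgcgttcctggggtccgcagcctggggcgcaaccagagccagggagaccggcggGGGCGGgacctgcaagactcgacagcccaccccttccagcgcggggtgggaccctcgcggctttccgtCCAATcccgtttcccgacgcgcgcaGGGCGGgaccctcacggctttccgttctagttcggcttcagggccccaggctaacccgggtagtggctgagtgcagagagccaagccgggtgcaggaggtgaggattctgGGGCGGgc
The Hacl1 window held 1 GC box, on the opposite strand and with its first base at −49 from the gene start, and no AGGTCA. The Amacr window held 1 AGGTCA, at −201, and 4 GC boxes, of which the last pair overlap, and the Crot window held 3 GC boxes and 1 CCAAT box. Of the windows not shown, that of Hsd17b4 held 1 AGGTCA, at −56, and 2 GC boxes. That of Scp2 held 2 GC boxes, and that of Phyh held none of these motifs. Among 33469 rat promoter windows of this length, 16.2% held AGGTCA, 33.1% GGGCGG and 37.5% CCAAT. A direct repeat of AGGTCA with 1 base between the copies, the classic form of a response element of PPAR nuclear receptors, was in 0.0538% of the windows and in none of those of the 6 genes. A match is a description of the letters only.

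All values are the authors' deposited log2 values, 1 per probe set and array, for which the method of background correction and normalization was not given in the sources used here. Because probes differ in brightness, levels of different genes are set side by side only as a rough check of the tissue label, and in no result. The arrays of a diet correlated at 0.911 to 0.961 over the 3240 varying probe sets, and 0 pairs were identical. Of 15 hepatocyte probe sets 8 varied. These lay between the 91.4th percentile of all probe sets for Tat, an enzyme of tyrosine breakdown, and the 99.9th for Cyp2c11, a cytochrome P450. Of 4 cholangiocyte genes with a probe set 0 varied, which says nothing on their level, since bright probe sets could also be flat. For markers of other cells only the varying probe sets could be summarised: the mean of 6 Kupffer cell probe sets ran from 8.62 to 9.20 log2 on control arrays, 8.72 to 9.22 with 0.1% and 8.68 to 9.18 with 1% wakame, and that of 5 stellate cell probe sets from 8.21 to 8.58, 8.03 to 8.63 and 8.24 to 8.81. In whole liver, fewer cells of a type and less RNA per cell cannot be told apart.

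Hacl1 showed the widest spread of the 5 measured genes, and its diet means rose in the order of the wakame dose. That spread includes the difference by which Hacl1 was chosen. Its probe set, 1371012_at, read 8.98, 8.76, 9.39 and 9.34 log2 on the 4 control arrays, 9.78, 9.65, 8.97 and 10.80 with 0.1% wakame, and 10.93, 11.25, 10.29 and 10.49 with 1% wakame. All 4 arrays of the 1% diet lay above all 4 control arrays, while the 0.1% diet spread across both, with replicate 3 inside the control range and replicate 4 inside the range of the 1% diet. The means were 9.12 ± 0.30 in control, 9.80 ± 0.75 with 0.1% and 10.74 ± 0.43 with 1% wakame (SD, n = 4 each). The 1% diet minus control was 1.62 ± 0.35 log2 (SE), or 3.08-fold, the 0.1% diet minus control 0.68 ± 0.35 and the 1% minus the 0.1% diet 0.94 ± 0.35. These differences share arrays with each other and with the choice of Hacl1, and no p is given for them. Of the 3240 varying probe sets, 5.22% lay higher with 1% wakame than with control without overlap, as Hacl1 did. The SD of Hacl1 over the 12 arrays, 0.84, was the 172nd highest of the 3240.

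A single array moved the middle dose. Without replicate 4 of the 0.1% diet, Hacl1 in that diet minus control was 0.35 in place of 0.68, and without replicate 3 it was 0.96. The 1% minus the 0.1% diet was 1.27 without that replicate 4 and 0.66 without replicate 3, and the difference between 1% and control ran from 1.45 to 1.77 over the 8 arrays left out in turn. The difference between the 3-prime and 5-prime control probe sets of Gapdh, which grows as RNA degrades, was 1.05 ± 0.01 log2 in control, 1.08 ± 0.10 with 0.1% and 1.21 ± 0.16 with 1% wakame, with an exact permutation p of 0.143 for 1% against control. It overlapped between diets, and it correlated with Hacl1 over the 12 arrays at r = 0.73, and at 0.56 once the diet means were removed. That of Actb correlated with Hacl1 at 0.04, and at −0.40 with the diet means removed. With the Gapdh difference in the fit, Hacl1 with 1% minus control was 1.19, and with 1% minus 0.1% it was 0.58. Whether RNA integrity has a part in the Hacl1 values was not tested beyond this.

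**Figure D1:**
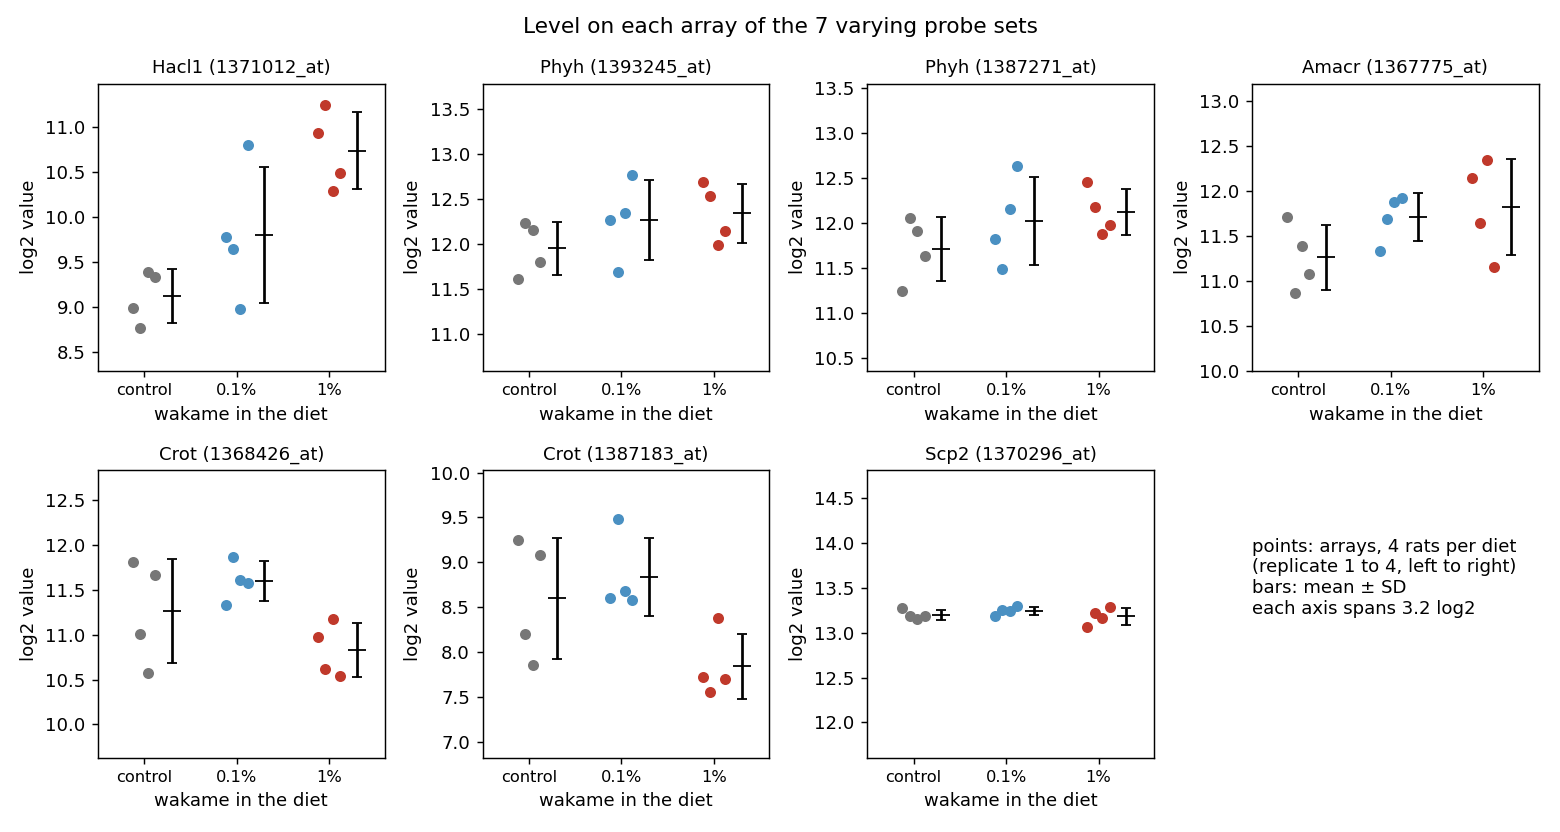
Deposited log2 value (y axis, each spanning 3.2 log2) by wakame in the diet (x axis) for the 7 varying probe sets; points are arrays, 4 rats per diet in replicate order, and bars give mean ± SD. The 1% points of Hacl1 lie from 10.29 to 11.25, above the control points at 8.76 to 9.39, and the 1% points of both Crot probe sets lie below those of the 0.1% diet.

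Phyh, the hydroxylase that acts just before Hacl1, had 2 measured probe sets that ranked the arrays alike. The brighter, 1393245_at, read 11.62, 12.23, 12.16 and 11.80 log2 in control, 12.27, 11.68, 12.35 and 12.77 with 0.1% wakame, and 12.70, 12.53, 11.99 and 12.14 with 1% wakame. The highest of the 12 values and the second lowest both came from the 0.1% diet, and the diets overlapped throughout. The 1% diet minus control was 0.39 ± 0.24 (SE, limma adjusted p = 0.412, 95% interval −0.14 to 0.92), the 0.1% diet minus control 0.31 ± 0.24 (adjusted p = 0.686) and the 1% minus the 0.1% diet 0.07 ± 0.24 (adjusted p = 0.978). The second probe set, 1387271_at, was at 0.41 ± 0.25, 0.31 ± 0.25 and 0.10 ± 0.25 in these comparisons (adjusted p = 0.411, 0.690 and 0.973). The gap between the 2 probe sets stayed within 0.11 to 0.44 log2 on the 12 arrays, and they correlated at r = 0.97, or 0.96 with the diet means removed. Without replicate 4 of the 0.1% diet, the 0.1% diet minus control was 0.15 on the brighter and 0.11 on the dimmer, without replicate 2 of that diet 0.51 and 0.49, and without control replicate 1 0.20 and 0.16. The 1% diet minus control was 0.25 on the dimmer without control replicate 1. Over both, the SD among rats of a diet was 0.26 to 0.49 log2, beside differences between diet means of 0.07 to 0.41.

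Amacr, the racemase, lay higher on average with either wakame diet, with overlap. Its probe set, 1367775_at, read 11.71, 10.87, 11.39 and 11.07 log2 in control, 11.34, 11.69, 11.88 and 11.92 with 0.1% wakame, and 12.15, 11.65, 12.35 and 11.16 with 1% wakame. Replicates 2 and 4 of the 1% diet and replicates 1 and 2 of the 0.1% diet lay inside the control range. The 1% diet minus control was 0.56 ± 0.27 (adjusted p = 0.289, 95% interval −0.025 to 1.15) and the 0.1% diet minus control 0.45 ± 0.27 (adjusted p = 0.572, −0.14 to 1.04). Between the wakame diets the difference was 0.12 ± 0.27 (adjusted p = 0.970).

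Crot, which hands shortened chains to carnitine, had its lowest mean with 1% wakame and its highest with 0.1%, though no difference passed the test over all varying probe sets. Its brighter probe set, 1368426_at, read 10.98, 10.62, 11.18 and 10.54 log2 with 1% wakame, against 11.33, 11.87, 11.61 and 11.58 with 0.1% wakame, and the diets did not overlap. Its dimmer probe set, 1387183_at, read 7.72, 7.56, 8.38 and 7.70 with 1% wakame, against 8.60, 9.48, 8.68 and 8.58 with 0.1% wakame, again without overlap. Among all varying probe sets 1.94% lay lower with 1% than with 0.1% wakame without overlap, and these 2 are of the same gene.

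The 1% minus the 0.1% diet was −0.77 ± 0.26 for the brighter Crot probe set (95% interval −1.35 to −0.19) and −1.0 ± 0.33 for the dimmer (−1.74 to −0.26), which are 1.71-fold and 2.00-fold lower levels. The limma adjusted p was 0.622 for each, and the exact permutation p was 0.0286 for each, unadjusted and the smallest that 4 against 4 arrays allow. Control arrays lay across both wakame diets, at 11.81, 11.01, 10.58 and 11.66 on the brighter and 9.25, 8.20, 7.86 and 9.08 on the dimmer probe set, so that replicates 1 and 4 resembled the 0.1% diet and replicates 2 and 3 were lower. Against control, the 1% diet was at −0.44 ± 0.26 and −0.76 ± 0.33 (adjusted p = 0.396 and 0.259) and the 0.1% diet at 0.33 ± 0.26 and 0.24 ± 0.33 (adjusted p = 0.689 and 0.840). Without control replicate 1 the brighter was at −0.26 and without control replicate 3 at −0.67 for the 1% diet minus control, and those of the dimmer were −0.54 and −1.0. For the 0.1% diet minus control the same omissions gave 0.51 and 0.10 on the brighter and 0.46 and −0.0076 on the dimmer, which was at 0.026 without replicate 2 of the 0.1% diet, 0.11 without control replicate 2 and 0.40 without control replicate 4. The 1% minus the 0.1% diet stayed between −0.89 and −0.67 on the brighter and between −1.18 and −0.78 on the dimmer with any of its 8 arrays left out. The third Crot probe set, 1380015_at, held 6.08 on every array and was unmeasured.

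Scp2, the thiolase and lipid carrier, hardly varied. Its measured probe set, 1370296_at, read 13.28, 13.19, 13.15 and 13.19 log2 in control, 13.19, 13.26, 13.24 and 13.29 with 0.1%, and 13.06, 13.22, 13.16 and 13.28 with 1% wakame. The 1% diet minus control was −0.02 ± 0.05 (adjusted p = 0.902, 95% interval −0.13 to 0.09), the 0.1% diet minus control 0.04 ± 0.05 (adjusted p = 0.807) and the 1% minus the 0.1% diet −0.06 ± 0.05 (adjusted p = 0.897). Only 7.56% of varying probe sets had a lower SD. The other Scp2 probe set, 1387896_at, held 12.19 on every array, and that of Hsd17b4, 1367672_at, held 11.60. These are bright values that did not move on the deposited scale, and since it is unknown how they were made, they say nothing on whether the RNA differed.

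**Figure D2:**
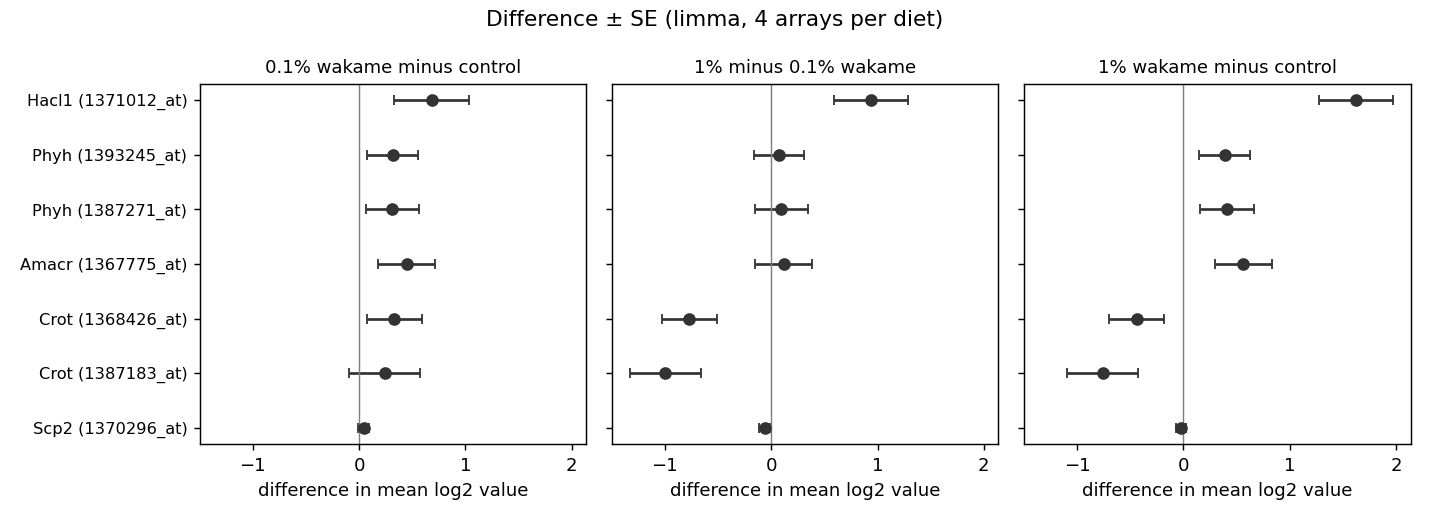
Difference in mean log2 value ± SE (x axis; limma, 4 arrays per diet) for each of the 7 varying probe sets (y axis) in the 3 comparisons. Hacl1 stands at 0.68, 0.94 and 1.62 from left to right, both Crot probe sets lie above 0 for 0.1% wakame minus control and below 0 in the other panels, and Scp2 lies within 0.07 of 0 throughout.

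Leaving out Hacl1, limma called 0 of the other 6 measured probe sets at an adjusted p under 0.05 for the 1% diet against control, 0 for the 0.1% diet against control and 0 for the 1% against the 0.1% diet. Of all 3240 varying probe sets 1.67%, 0.0617% and 0% were called in these comparisons, and since the genes were chosen by the Hacl1 difference between the 1% and control diets, its own place there is not counted. At an unadjusted p under 0.05 the counts were 1, 0 and 2 of 6, each of them Crot, beside 18.5%, 11.5% and 6.76% of all varying probe sets. These other 6 all lay higher with 0.1% wakame than with control, where 44.1% of all varying probe sets did. Phyh was at 0.31 on both probe sets, Amacr at 0.45, Crot at 0.33 and 0.24 and Scp2 at 0.04. The median over all varying probe sets was −0.02. Hacl1 is left out here too, since it was chosen by a difference from the same control arrays. For the 1% diet against control the other 6 were split. Phyh was at 0.39 and 0.41 and Amacr at 0.56, against Crot at −0.44 and −0.76 and Scp2 at −0.02. Of all varying probe sets 44.9% lay higher with 1% wakame than with control. Phyh and Crot have 2 each of these 6 probe sets, so the 6 are not separate results, and the 2 comparisons share the control arrays. The mean of the 8 hepatocyte marker probe sets lay at 12.40 to 12.64 log2 on the arrays of the 0.1% diet, against 12.12 to 12.38 on control arrays without overlap, and at 12.05 to 12.45 with 1% wakame. The differences of Cyp2e1 (0.90) and Tat (0.77) at 0.1% wakame were far above the median of the 8, which was 0.10, and Apoa1 and Cyp2c11 were at −0.03 and −0.16. With 1% wakame Cyp2e1 was at 0.67 and Tat at −1.04, and the median was 0.03. None of the 8 was called, and their part in the members' values was not tested.

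Among themselves the genes did not follow a common course over the 12 arrays. Over arrays, which share their diet and their RNA sample across genes, Hacl1 correlated with the brighter Phyh probe set at r = 0.60 (rho = 0.48), and at 0.50 with the diet means removed. With Amacr it was 0.44 (rho = 0.38) and 0.03, and with Scp2 −0.12 (rho = −0.01) and 0.02. With the 2 Crot probe sets, in order of brightness, Hacl1 gave −0.43 and −0.56 (rho = −0.44 and −0.57), and −0.16 and −0.26 with the diet means removed. The 4 pairs of a Phyh and a Crot probe set ranged from −0.66 to −0.39 over all arrays (rho = −0.66 to −0.41) and from −0.80 to −0.46 with the diet means removed, and the dimmer Crot probe set gave the stronger values with both Phyh probe sets. These are descriptions of 12 points with no test.

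The genes whose levels followed Hacl1 most closely were taken from 2582 other varying probe sets with 1 symbol, by Pearson r over the 12 arrays, where 99% of r lay below 0.84. The highest were Cgnl1, a junction protein, at 0.93, Slc10a1, the bile acid uptake carrier of hepatocytes, at 0.92, Mia3, of collagen export from the endoplasmic reticulum, at 0.92, Pkp4, a junction plaque protein, at 0.91 and Slc16a12, a carrier of the monocarboxylate family, at 0.91. With the diet means removed they stood at 0.81, 0.86, 0.80, 0.80 and 0.73, on the same arrays by which they were picked. Slc10a1 moved little in size, from 12.41 to 12.59 log2 over all arrays, yet ranked the rats much as Hacl1 did (rho = 0.94).

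The most opposite were Tubb2a, a beta-tubulin, at −0.95 and the 2 probe sets of Pnpla3, a lipid hydrolase of the lipid droplet, at −0.94 and −0.92, and with the diet means removed these were −0.94, −0.89 and −0.86. Within the 0.1% diet, replicate 4, the array with the highest Hacl1, had Tubb2a at 10.05 and Pnpla3 (1391544_at) at 5.53 log2, against 10.87 to 11.30 and 10.14 to 11.11 on the other 3 arrays of that diet. Without the 2 arrays farthest from the Hacl1 median, replicates 1 and 2 of the 1% diet, the 8 correlations stayed between 0.86 and 0.93 in the positive group and between −0.87 and −0.91 in the negative group. Since these genes were picked as extremes of many, the values describe a ranking.

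**Figure D3:**
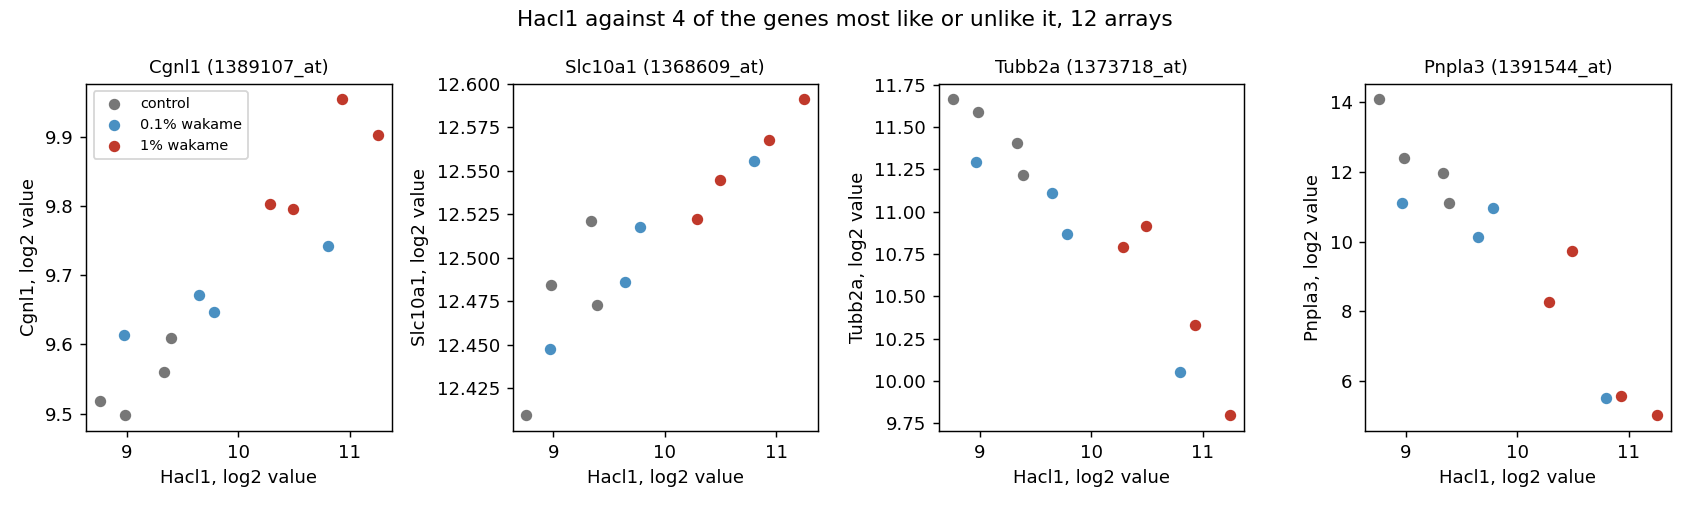
Hacl1 (x axis) against Cgnl1, Slc10a1, Tubb2a and Pnpla3 (y axes), all in log2 values, 1 point per array and colour by diet. Cgnl1 and Slc10a1 go up and Tubb2a and Pnpla3 go down as Hacl1 goes up, and the 0.1% array with Hacl1 at 10.80 has Tubb2a at 10.05 and Pnpla3 at 5.53, within the range of the 1% diet.

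The rest of the peroxisomal fat pathway was read from 5 gene lists drawn up for this purpose, with 54 varying probe sets of 50 genes in all. Limma called 0 of the 54 in any of the 3 comparisons. For the 1% diet against control 4 of 54 (7.41%) had an unadjusted p under 0.05, for the 0.1% diet against control 4 (7.41%) and for the 1% against the 0.1% diet 2 (3.70%), each a smaller share than over all varying probe sets. The median size of difference, regardless of sign, was 0.13 log2 in the lists and 0.15 over all varying probe sets for the 1% diet against control.

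Closest to Hacl1 in function is the list of alpha-oxidation and branched-chain support, with 10 varying of 22 probe sets. Of the 10, 8 lay higher with 1% wakame and 7 with 0.1% than in control, beside 44.9% and 44.1% of all varying probe sets. The median difference over all 10 was 0.08 and 0.04 log2. Acox2, the peroxisomal oxidase of branched chains and bile acid precursors, was at 0.51 ± 0.20 with 1% (SE, adjusted p = 0.215) and 0.51 ± 0.20 with 0.1% (adjusted p = 0.370). It read 10.28 to 11.01 in control, 10.95 to 11.45 with 0.1% and 10.71 to 11.50 with 1% wakame, so the diets overlapped. Pecr, a peroxisomal enoyl-CoA reductase that acts on the way from phytol to phytanic acid, was at −0.12 ± 0.06 with 1% (adjusted p = 0.280), below control on every array, as 6.05% of all varying probe sets were, and at −0.09 with 0.1%. Baat, which joins bile acids to amino acids, was at 0.17 ± 0.08 with 1% (adjusted p = 0.294). Slc27a5, the bile acid-CoA ligase, was noticed after its values were seen, at 0.67 ± 0.55 with 1% and 0.70 ± 0.55 with 0.1%, where control replicate 2 read 9.38 and the other 11 arrays 10.79 or more.

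Straight-chain peroxisomal beta-oxidation had 10 varying of 17 probe sets, 4 higher and 6 lower with 1% wakame than in control, with a median of −0.06. Acot12, an acyl-CoA thioesterase, was at 0.48 ± 0.15 with 1% (adjusted p = 0.130), reading 8.90, 8.85, 8.43 and 8.47 against 8.34, 8.10, 8.33 and 7.98 in control, without overlap. Ehhadh, the bifunctional enzyme of straight chains, was at −0.40 ± 0.23 (adjusted p = 0.383) and Nudt7, which cleaves coenzyme A, at −0.20 ± 0.17 with 1% and −0.27 ± 0.17 with 0.1% (adjusted p = 0.578 and 0.607). Lonp2, a peroxisomal protease, was at −0.21 ± 0.12 with 0.1% (adjusted p = 0.539).

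Of peroxisome assembly 6 of 26 probe sets varied, 4 higher and 2 lower with 1% wakame and 2 higher and 4 lower with 0.1%. Pex5, the import receptor for most peroxisomal enzymes, was at −0.04 with 1% and −0.16 ± 0.08 with 0.1% (adjusted p = 0.482). Pex19, a chaperone of membrane proteins, was at −0.13 ± 0.09 and −0.20 ± 0.09 (adjusted p = 0.447 and 0.395), and Pex11a, of peroxisome division, at 0.47 ± 0.56 with 1% (adjusted p = 0.716). Pxmp4, a peroxisomal membrane protein noticed after its values were seen, gave the largest list difference at 0.1%, 1.18 ± 1.28 and 0.75 ± 0.75 for its 2 probe sets (adjusted p = 0.801 and 0.772). Its brighter probe set, 1383117_at, read 5.44 in control replicate 1 and 6.18 in replicate 4 of the 1% diet, against 9.65 to 11.18 on the other 10 arrays.

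Other peroxisomal enzymes had 10 varying of 24 probe sets, 7 higher with 1% wakame than in control and a median of 0.03. Pmvk, a kinase of the mevalonate pathway, was at −0.73 ± 0.21 with 1% (adjusted p = 0.105), also below control on every array, and −0.48 ± 0.21 with 0.1% (adjusted p = 0.421). Uox, urate oxidase of the peroxisomal core, was at 0.29 ± 0.16 with 0.1% (adjusted p = 0.557) and −0.11 ± 0.16 with 1% (adjusted p = 0.783). Its 1% minus 0.1% difference was −0.40 ± 0.16 (adjusted p = 0.697), without overlap, as in 1.94% of all varying probe sets. Xdh, of purine breakdown, was at −0.13 ± 0.08 with 1% (adjusted p = 0.428) and Gstk1, a glutathione transferase, at 0.15 ± 0.21 (adjusted p = 0.771).

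PPARalpha is the nuclear receptor that fatty acids activate in liver, with phytanic acid among its ligands. The list of the receptor and its classic targets outside the peroxisome had 18 varying of 36 probe sets. None of the 18 was a probe set of Ppara, the gene of the receptor itself. With 1% wakame 10 lay higher and 8 lower than in control, with a median of 0.02, and with 0.1% 6 lay higher and 12 lower, with a median of −0.02. Cpt1a, the gate of mitochondrial fat oxidation, was at 0.64 ± 0.30 with 1% and 0.73 ± 0.30 with 0.1% on its brighter probe set (adjusted p = 0.290 and 0.395), and at 0.26 ± 0.27 and 0.17 ± 0.27 on its other (adjusted p = 0.657 and 0.869). Pdk4, a kinase that holds back pyruvate oxidation, was noticed after its values were seen, at −0.71 ± 0.45 with 1% and −0.64 ± 0.45 with 0.1% (adjusted p = 0.429 and 0.651). Creb3l3, a liver transcription factor, was at 0.35 ± 0.13 with 1% (adjusted p = 0.209), without overlap. Ppargc1a, a coactivator of PPARalpha, was at 0.26 ± 0.13 and 0.24 ± 0.13 (adjusted p = 0.291 and 0.533). Its probe set was dim, with a mean of 6.17 log2, at the 25.8th percentile of all probe sets.

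**Figure D4:**
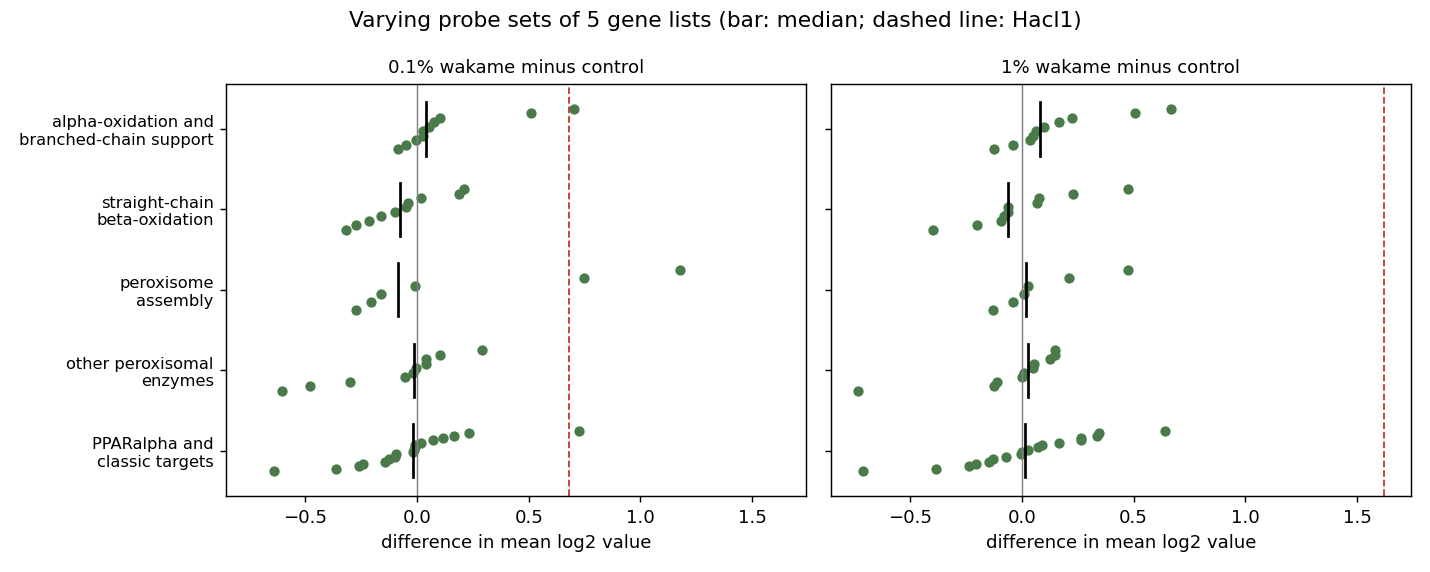
Difference in mean log2 value (x axis) of every varying probe set of the 5 gene lists (rows) for 0.1% and for 1% wakame minus control; black bars are list medians and the dashed line is Hacl1. With 1% wakame the list points run from −0.73 to 0.67, and Hacl1 is at 1.62; with 0.1% wakame Hacl1 is at 0.68, and points of Pxmp4, Cpt1a and Slc27a5 lie beyond it.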

How the data were processed

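Liver RNA of 12 rats, 4 per diet, was measured on Affymetrix rat arrays. The authors deposited log2 values per probe set; the log2 scale was inferred from their range, 3.15 to 14.6. Per the labels' protocols biotin-labelled cRNA was made with a 3-prime kit, and the submitters' processing notes name R 2.7.2. For normalization and detection calls, the method was not given in the sources used here. Precision is set by having 4 arrays per diet. Of 31042 probe sets other than the 57 controls, 27802 had an SD of at most 0.01 and were left out as unmeasured.

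Diet means were fitted to the other 3240 on all 12 arrays with limma 3.58.1 in R 4.3.3, variances following a trend with level, and p-values were adjusted by Benjamini-Hochberg over the 3240 with a threshold of 0.05. Tests are two-sided; SE and 95% intervals come from this fit, and the exact permutation test compares all divisions of 8 arrays into 4 and 4. Samples were grouped by their titles. Members, lists, the filter and tests were chosen with earlier results of these data known. The genes named were all members, the list genes called or of smallest unadjusted p, the 5 genes most like and 3 probe sets most unlike Hacl1, and those said to be noticed later. The fit was tested on simulated data with independent noise, in which 50 probe sets were changed in the 1% diet at each of several sizes. Against control it called 24 of 50 at 0.5 log2, 38 at 1, 47 at 2 and 50 at 4, and 10 unchanged probe sets. A real difference of 0.5 or 1 log2 can therefore go uncalled. The changed probe sets were drawn at random from the 3240. Those of Phyh, Amacr and Crot had a wider SD than 75.6% to 90.2% of the 3240. The simulated counts therefore do not give how often a difference of these members would be called, and they cover the 1% diet against control only. Alternatives were no filter, an SD limit of 0.1, no trend, 2 diets alone, a replicate block, centring, leaving out dim probe sets, Gapdh integrity as covariate and each array left out. Symbols come from the platform annotation, which can be old. The replicate numbers carry no stated pairing.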

Additional observations from a re-analysis of the deposited data

Results flagged for a closer look

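Among all measured probe sets of the 6 genes, the 5 gene lists, the hepatocyte markers and the genes most like or unlike Hacl1, single arrays stood apart from the other 3 of their diet in 9 of 231 sets of 4 arrays, by a gap whose share of the diet's range passed Dixon's 95% critical value, where chance gives about 1 in 20. Crot (1387183_at) read 9.48 log2 in replicate 2 of the 0.1% diet, against 8.58 to 8.68 on the others. Pecr read 12.16 in replicate 3 of the 0.1% diet, against 11.98 to 12.01, and Idh1, the peroxisomal and cytosolic isocitrate dehydrogenase, 12.45 in replicate 2, against 12.22 to 12.26. With 1% wakame, Pex5 read 9.39 in replicate 4, against 9.60 to 9.63, Mmut, of mitochondrial propionate use, 10.89 in replicate 1, against 10.61 to 10.65, and Acbd5, a peroxisomal acyl-CoA binding protein, 10.10 in replicate 3, against 10.21 to 10.22. In control, Pxmp4 (1383117_at) read 5.44 in replicate 1, against 9.995 to 10.75, and in replicate 4 Creb3l3 read 10.35, against 10.66 to 10.68, and Decr2, of unsaturated fat breakdown, 9.78, against 9.97 to 10.004. No set of Hacl1, Phyh, Amacr or Scp2 was among them.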

How the results depend on the processing

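Hacl1, by whose 1% minus control difference the genes were chosen, is left out of the counts of called member probe sets. Without it, the counts of called probe sets, of members and of the gene lists, were 0 under each alternative run. Of 285 recomputed differences of Phyh, Amacr, Crot and Scp2, 273 kept their sign and side of the threshold and 12 turned sign, none of them called. Scp2 for 1% wakame minus control was 0.0034 after centring and 0.0029 with the Gapdh covariate, and −0.053 to 0.021 with arrays left out. Phyh for 1% minus 0.1% was −0.033 with the Gapdh covariate (1393245_at), and with arrays left out −0.12 to 0.24 on that and −0.084 to 0.30 on its other probe set. With arrays left out Amacr for 1% minus 0.1% ran from −0.057 to 0.34 and the dimmer Crot probe set for 0.1% minus control from −0.0076 to 0.46. The cause was not tested. Arrays of the same replicate number deviated together at r = −0.115 to 0.0924, and 1 of 12 correlated best with its own number, so the numbers were not used as pairs. Unmeasured probe sets, 4 arrays a diet and the absence of a background level limit these results.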
